A study of Mus musculus with 6 samples.

Results

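Chaperone genes and genes of the unfolded protein response, 44 in all, were compared between wild-type (WT) and Sfrp1-/- (Sfrp1_KO) skin carcinoma cells, among 30142 genes of the array. Chaperones bind unfolded proteins and help them reach their shape, and separate sets of them serve the endoplasmic reticulum (ER), the cytosol and the mitochondria. When unfolded proteins build up in the ER, the sensors IRE1 (gene Ern1), PERK (gene Eif2ak3) and ATF6 start the unfolded protein response, which raises ER chaperones and degradation factors through ATF6, XBP1 and ATF4. In the cytosol the heat shock factor HSF1 raises the HSP70 system and the small heat shock proteins. Carcinoma cells and secretory cells are known to lean on both programmes.

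The genes were a fixed list of names, and a gene counted as measured when a feature of the array carried its symbol and no other. Of the 44 genes 27 belong to the ER and its stress response and 17 to the cytosolic and mitochondrial chaperones. A value came from 37 of them, 25 on the ER side and 12 on the other. Of the 37, 33 lay above the background level, defined below, on all 6 arrays. Trib3 and Chac1 lay under it on all 6 and still enter the counts and medians of the 37 and the 25. Sel1l and Dnajc3 lay under it on some arrays. Pdia4, Manf, Hspa1b and Dnaja1 stood only on features shared with other symbols, Hsp90ab1 and Hsf1 were not listed in the platform annotation used, and none of these 6 has a value here. Hspa8, the constitutive cytosolic HSP70, sat at the highest value of every array (19.91 to 19.93), so that no difference could be read from it.

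The arrays held RNA of cancer stem cells from squamous cell carcinomas of 3 WT and 3 Sfrp1_KO samples. In both genotypes tumours were raised with the mutagen DMBA on 3 days (PD-23, 25 and 27 in the labels) and then the promoter TPA 2 times a week for 30 to 40 weeks. Cells lacking lineage markers and carrying Epcam, α6 integrin and CD34 were sorted by flow cytometry. Sfrp1 encodes a secreted Wnt antagonist. The labels give neither the strain nor the sex of the mice, the part of Sfrp1 that is deleted, or whether each sample is a different mouse. The p-values therefore cover the spread among these 6 samples, which may be technical. The Sfrp1_KO arrays lay below the WT arrays at Sfrp1 itself (5.75 ± 0.30 in WT and 5.12 ± 0.03 in Sfrp1_KO, SD, n = 3), a difference that missed the limma threshold (adjusted p = 0.0969).

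All levels are deposited log2 signals. They reach 19.93, beyond the 16 bits of a scanner, so 1 log2 unit need not be a doubling of RNA. The background level of an array, its brightest background probe set, was 4.82 to 5.10. Several marker lists moved with genotype. Of 9 basal keratinocyte markers 7 fell in Sfrp1_KO, with list means of 9.63 to 10.22 on WT arrays and 5.83 to 5.94 on Sfrp1_KO arrays. Among these, Epcam, a marker of the sort, was above background on 1 of 3 Sfrp1_KO arrays. Itga6, which encodes the α6 integrin of the sort, fell from 9.51 ± 0.64 to 7.62 ± 0.18 (SD, n = 3) and stayed above background on all 3. All 8 suprabasal keratinocyte markers had negative differences and 1 of them, Dsg1a, fell. Their list means were 6.12 to 6.85 in WT and 4.61 to 4.71 in Sfrp1_KO. Of 9 fibroblast markers 3 rose (Vim, Pdgfrb and Thy1) and Fbln1 fell, with list means of 5.54 to 6.55 and 6.95 to 7.71. Of 12 genes known to be induced when tissue is dissociated Fosb rose (difference 4.09, SE 0.69, limma adjusted p = 0.0334), and the list means ran from 6.39 to 7.99 in WT and from 8.05 to 8.57 in Sfrp1_KO. The part of any of these in the results was not tested. Of 10 leukocyte and macrophage markers none passed, with list means of 4.48 to 4.60 in WT and 4.78 to 5.51 in Sfrp1_KO. Ptprc, Csf1r, Adgre1 and Fcer1g were under background on all 6 arrays, and Lyz2 read 4.94 ± 0.22 and 6.91 ± 1.00 (SD, n = 3). C1qa, C1qb, Laptm5 and Tyrobp were above background on 2 Sfrp1_KO arrays and no WT array. Cd68 was above background on all 6 arrays and went the other way, at 5.78 ± 0.83 in WT and 5.52 ± 0.27 in Sfrp1_KO (SD, n = 3). Plasma cells are a type with a strong ER programme. Of their 7 markers Prdm1 rose (1.24) and Sdc1 fell (-2.31), Jchain, Mzb1, Irf4 and Tnfrsf17 were under background on all 6 arrays, and the list means were 5.10 to 5.32 and 5.01 to 5.14. The part of these lists was not tested either. All 6 melanocyte markers were under background on all arrays. In RNA of a whole sample, fewer cells of a type and less RNA per cell cannot be told apart.

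The promoters are shown first, as description. The list names known genes of the stress responses, and the motifs searched are bound by factors of those responses. The shares below therefore do not stand apart from how the list was chosen. RefSeq's promoter table (build GRCm38.p6, 250 bases before to 50 after a start site) held 42 windows for 36 of the 44 genes. The ER stress response element is CCAAT, 9 bases of any kind and then CCACG, where NF-Y binds the left part and ATF6 the right. Searched on both strands, it stood in 39 of the 32851 windows of the table (0.119%) and in those of 8 of 24 ER genes (33.3%), and in none of 18 windows of 12 cytosolic and mitochondrial genes. Those 8 genes carry 9 elements, which are printed 5′ to 3′ in the direction that reads CCAAT first, with the fixed letters in capitals.
Hspa5, chr2:34772025-34772043, plus strand: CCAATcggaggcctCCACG
Hsp90b1, chr10:86705638-86705656, minus strand: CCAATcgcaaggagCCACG
Hsp90b1, chr10:86705533-86705551, plus strand: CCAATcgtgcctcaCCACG
Calr, chr8:84847075-84847093, plus strand: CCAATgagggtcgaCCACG
Canx, chr11:50325800-50325818, minus strand: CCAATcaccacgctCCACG
Pdia6, chr12:17266491-17266509, plus strand: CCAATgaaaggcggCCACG
Dnajc3, chr14:118937827-118937845, plus strand: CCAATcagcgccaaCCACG
Creld2, chr15:88819520-88819538, minus strand: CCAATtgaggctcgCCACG
Syvn1, chr19:6046532-6046550, plus strand: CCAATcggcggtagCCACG

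Of these 8 genes Hspa5 rose in Sfrp1_KO and the other 7 did not pass, with differences from -0.53 (Calr) to 0.61 (Hsp90b1) and a median over the 8 of -0.08. The Hspa5 window, chr2:34771840-34772139 on the plus strand, is shown whole because Hspa5 had the largest difference of all measured members. Besides the ER stress response element, which spans positions -65 to -47 from the start site, it was the only member window with TGACGTG, the core bound by ATF6 and XBP1, which 2.01% of all windows hold. Capitals mark the fixed letters of both.
Hspa5: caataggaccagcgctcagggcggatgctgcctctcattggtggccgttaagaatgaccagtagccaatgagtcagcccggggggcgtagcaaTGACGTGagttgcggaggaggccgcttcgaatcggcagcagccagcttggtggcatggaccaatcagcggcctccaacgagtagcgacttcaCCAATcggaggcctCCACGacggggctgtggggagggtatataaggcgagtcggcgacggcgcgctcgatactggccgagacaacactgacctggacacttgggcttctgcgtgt

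The heat shock element, bound by HSF1, was searched as 3 alternating units (GAA, 2 bases, TTC, 2 bases, GAA, or the reverse complement, overlaps allowed). It stood in 0.603% of all windows, in none of the ER genes' and in those of Hsph1, Hspd1 and Hspe1 among the 12 cytosolic and mitochondrial genes. Hspd1 and Hspe1, which encode the mitochondrial chaperonin and its lid, lie head to head, and their windows share 1 run of 18 bases that holds 2 overlapping matches. The Hsph1 window, chr5:149636266-149636565 on the minus strand, is shown because Hsph1 rose. Its element begins 16 bases after the start site of this window. A second Hsph1 window holds the same element, 37 bases after its own start site.
Hspd1 and Hspe1, chr1:55088059-55088076, plus strand: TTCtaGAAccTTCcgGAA
Hsph1: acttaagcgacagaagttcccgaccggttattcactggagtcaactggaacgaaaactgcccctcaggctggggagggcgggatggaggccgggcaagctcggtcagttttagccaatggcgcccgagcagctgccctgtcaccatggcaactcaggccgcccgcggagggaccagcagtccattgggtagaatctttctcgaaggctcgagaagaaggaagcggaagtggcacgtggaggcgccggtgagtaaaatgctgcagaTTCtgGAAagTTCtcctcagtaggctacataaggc

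The third motif, TGATGNAA, is the composite element bound by ATF4 with C/EBP factors, and 3.97% of all windows hold it. It stood in the windows of 4 ER genes, Chac1, Trib3, Asns and Herpud1, and of none of the cytosolic and mitochondrial genes. None of these 4 passed the test, and their differences ran from -0.15 (Asns) to 0.22 (Chac1), with Trib3 and Chac1 under background on all arrays. Of the other called members, Ppp1r15a and Dnajb4 had windows in the table without a match to any motif searched. A match describes letters only, and no match says nothing about the factor.

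**Figure D1:**
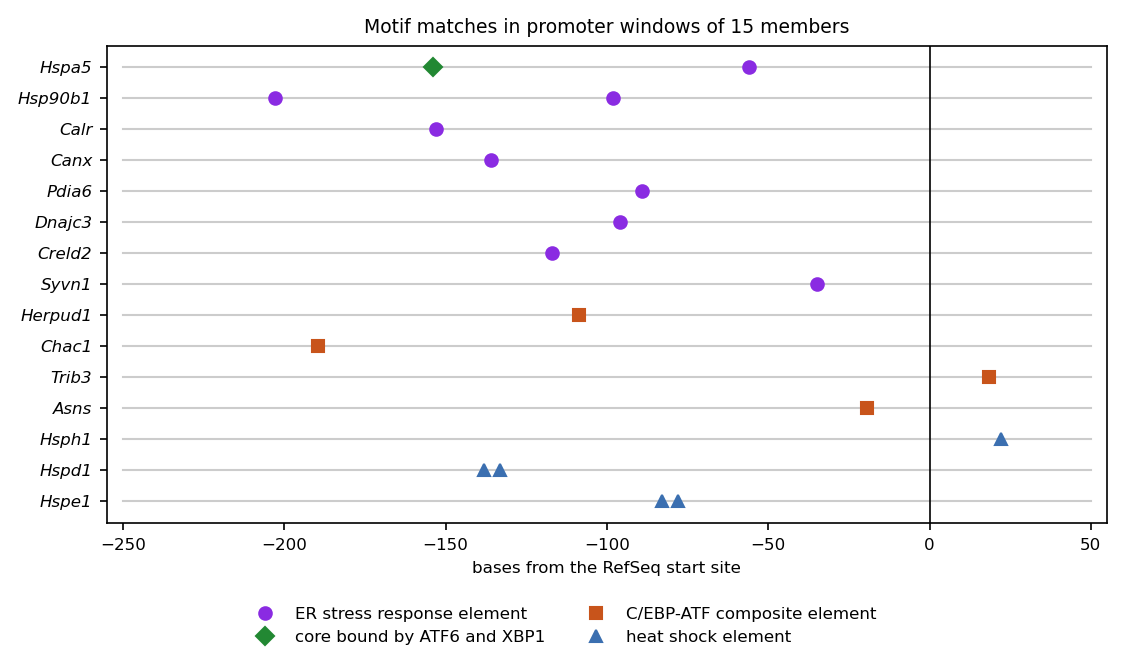
Position of each motif match in the promoter windows of the 15 members that hold one, in bases from the RefSeq start site (vertical line). The ER stress response element stands before the start site in all 8 windows that hold it, and the heat shock element of Hsph1 lies after it. The Hsph1 element is drawn for the printed window only, not for the second Hsph1 window.

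Over all members, 4 of 37 rose in Sfrp1_KO and none fell, by limma with Benjamini-Hochberg adjustment over 30142 genes at adjusted p under 0.05. The 4 were Hspa5, Ppp1r15a, Hsph1 and Dnajb4. They make 10.8% of the measured members, where 1.83% of all genes rose and 1.45% fell. Among the genes above background on all 6 arrays, 4 of 33 members rose (12.1%), where 323 of 8687 genes rose (3.72%) and 209 fell. Without adjustment 11 of 37 members were higher and 1 lower at p under 0.05, and 2061 and 2272 of the 30142 genes. Every Sfrp1_KO array lay above every WT array for 10 members and below for 2, where 9.1% and 10.8% of all genes did so. Of the 8687 genes above background on all 6 arrays 1261 and 1281 did so, against 10 and 2 of the 33 members. The median difference over the 37 was 0.16 log2 units against -0.01 over all genes, and 23 of 37 differences were positive. These counts hang on single arrays. With WT replicate 1 left out 5 members rose, with WT replicate 3 left out 2, and with Sfrp1_KO replicate 3 left out 3. No member rose when WT replicate 2 or Sfrp1_KO replicate 1 or 2 was left out.

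**Figure D2:**
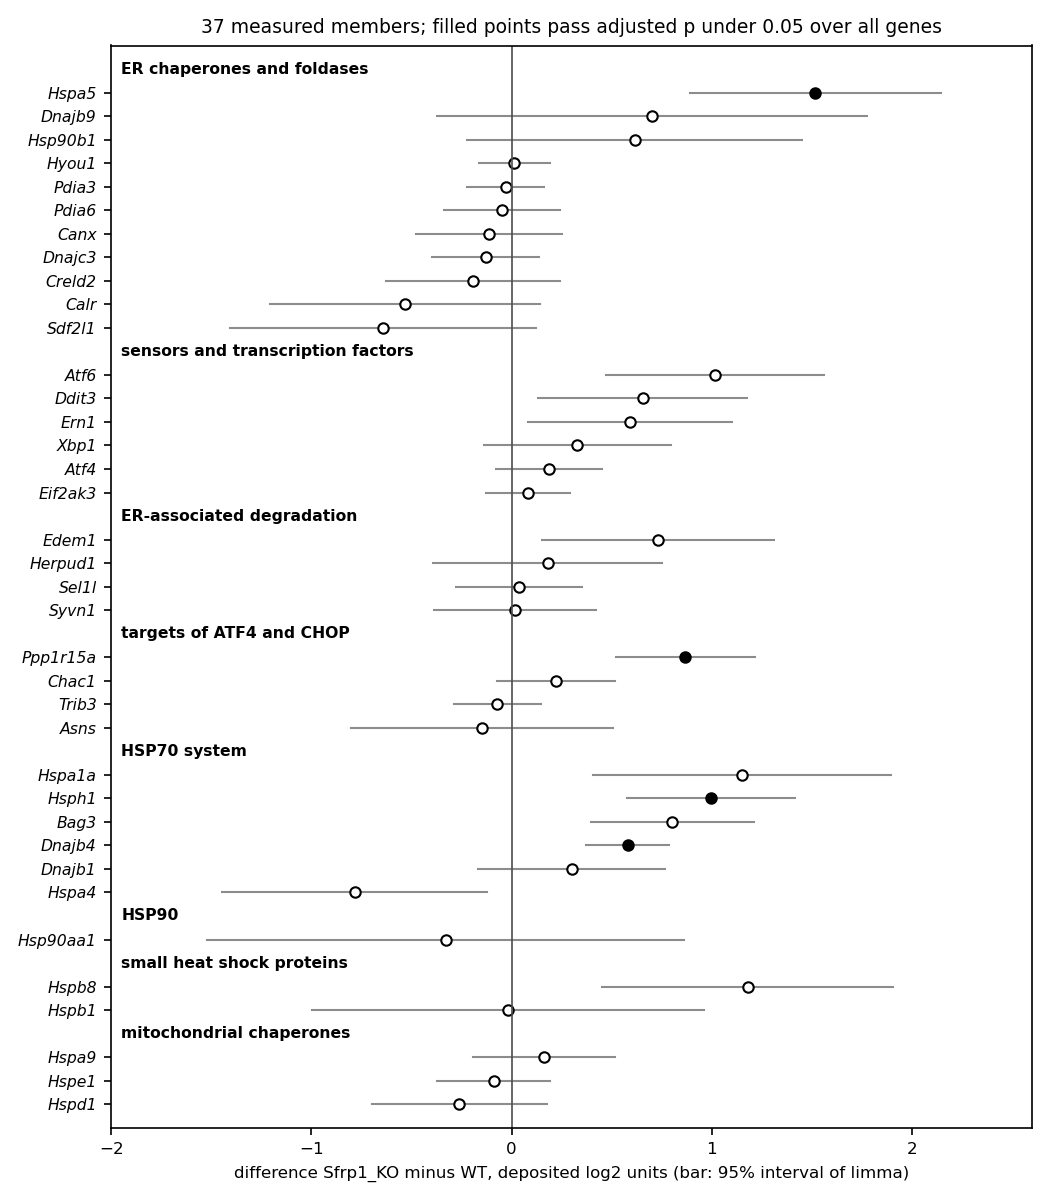
Difference of Sfrp1_KO minus WT in deposited log2 units for the 37 measured members by role, with limma's 95% interval as the bar. The 4 filled points, Hspa5 at 1.52, Ppp1r15a at 0.87, Hsph1 at 0.995 and Dnajb4 at 0.58, passed adjusted p under 0.05 over all genes.

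Among the ER chaperones and foldases Hspa5 rose and 10 of 11 measured genes did not pass. Hspa5 encodes BiP, the HSP70 of the ER lumen, which also holds the stress sensors inactive. Its WT arrays read 8.80, 8.11 and 8.27, and its Sfrp1_KO arrays 10.04, 10.26 and 9.44. All Sfrp1_KO arrays were above all WT arrays, and the difference was 1.52 (SE 0.26, 95% interval 0.89 to 2.15, limma adjusted p = 0.0349). The call was lost without WT replicate 2 or 3 or without Sfrp1_KO replicate 1 or 2 (adjusted p 0.0932 to 0.132), while the difference stayed between 1.34 and 1.75 over the 6 fits that each left out 1 array. With trend and robust options adjusted p was 0.0556.

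Hsp90b1, the ER HSP90 known as GRP94, read 10.30, 9.45 and 9.12 in WT and 10.29, 10.66 and 9.77 in Sfrp1_KO. Its genotypes overlapped through WT replicate 1, and its difference of 0.61 (SE 0.35) did not pass (limma adjusted p = 0.537). Dnajb9, a J-protein that brings BiP to IRE1, followed the same layout, with 9.42 in WT replicate 1 and 7.90 and 7.68 in the others against 8.86 to 9.28 in Sfrp1_KO. It did not pass with all arrays (0.70, SE 0.45, limma adjusted p = 0.603) and did without WT replicate 1 (1.24, limma adjusted p = 0.0253).

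The lectin chaperone genes Calr and Canx, which bind glycoproteins, did not pass. Calr read 10.33 ± 0.41 in WT and 9.79 ± 0.44 in Sfrp1_KO (SD, n = 3), and the arrays overlapped. The differences were -0.53 and -0.11 (limma adjusted p = 0.488 and 0.861), and that of Canx was 0.14 under renewed quantile normalization. The disulphide isomerase genes Pdia3 and Pdia6, which form and rearrange disulphide bonds, differed by -0.03 (95% interval -0.22 to 0.16) and -0.05 (-0.34 to 0.24), and that of Pdia3 was 0.19 under renewed quantile normalization. Hyou1, a nucleotide exchange factor for BiP, had the narrowest interval on this side, with a difference of 0.01 (-0.17 to 0.19). Dnajc3, which encodes the J-protein P58IPK, and Creld2, a putative isomerase, lay at -0.13 and -0.19 and did not pass. Dnajc3 was above background on only 1 of 3 Sfrp1_KO arrays, so that its difference is limited by the background. Sdf2l1, a partner of the ER J-proteins, had the lowest difference of the role, reading 7.70, 6.45 and 6.63 in WT and 6.25, 6.24 and 6.37 in Sfrp1_KO. Its arrays did not overlap, but the difference of -0.64 (SE 0.32) did not pass (limma adjusted p = 0.450), and WT replicate 1 stood apart from the other WT arrays. Over the 11 genes 4 differences were positive and 7 negative, with a median of -0.05.

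All 6 sensors and transcription factors had positive differences, with a median of 0.46, and none passed, where 45.8% of all genes had a positive difference. Atf6, the membrane-held factor that is cut in the Golgi under stress, read 7.03, 6.71 and 6.22 in WT and 7.65, 7.92 and 7.44 in Sfrp1_KO. The arrays did not overlap, and the difference of 1.02 (SE 0.23, limma adjusted p = 0.0789) passed in limma once the arrays were quantile normalized again (1.08, adjusted p = 0.0197) or weighted by quality (1.13, adjusted p = 0.0323). Ern1, the kinase and nuclease that splices Xbp1, read 5.85, 5.96 and 5.41 in WT and 6.43, 6.60 and 5.96 in Sfrp1_KO, the lowest of which lay barely above the highest WT array (0.59, SE 0.21, limma adjusted p = 0.261). Ddit3, which encodes the proapoptotic factor CHOP, read 6.51, 5.71 and 5.89 in WT and 6.86, 6.70 and 6.51 in Sfrp1_KO, so that WT replicate 1 and Sfrp1_KO replicate 3 were all but level. Its difference of 0.65 (SE 0.22) did not pass (limma adjusted p = 0.224) and did without WT replicate 1 (0.89, limma adjusted p = 0.0396). Xbp1 (0.33, SE 0.19), Atf4 (0.19, SE 0.11) and Eif2ak3 (0.08, SE 0.09) did not pass. A feature for the whole Xbp1 transcript does not read its splicing, and the levels of Atf4 and Eif2ak3 RNA do not read translation or phosphorylation, through which these genes are known to act.

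Among the 4 genes of ER-associated degradation, which returns misfolded proteins to the cytosol for destruction, none passed. All 4 differences were positive, with a median of 0.11, and those of Herpud1, Sel1l and Syvn1 turned negative when certain single arrays were left out (lowest -0.09). Edem1, a lectin that picks misfolded glycoproteins, had the largest, reading 7.16, 6.76 and 6.66 in WT and 8.03, 7.59 and 7.16 in Sfrp1_KO. Its genotypes overlapped slightly, with WT replicate 1 and Sfrp1_KO replicate 3 both at 7.16 (0.73, SE 0.24, limma adjusted p = 0.222). Herpud1, a membrane organiser of the degradation complex, was at 6.48 ± 0.21 and 6.66 ± 0.45 (SD, n = 3). The ubiquitin ligase gene Syvn1 and its partner Sel1l differed by 0.02 and 0.04, and Sel1l was above background on 2 WT arrays and on no Sfrp1_KO array.

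Of the 4 targets of ATF4 and CHOP Ppp1r15a rose and the other 3 did not pass. Ppp1r15a encodes GADD34, the phosphatase subunit that ends the translation block of the stress response. It read 5.41, 5.13 and 5.14 in WT and 6.16, 6.29 and 5.84 in Sfrp1_KO, with no overlap. Its WT levels were not far above the background of the WT arrays (4.82 to 5.09). The difference was 0.87 (SE 0.14, 95% interval 0.52 to 1.21, limma adjusted p = 0.0308), and the call was lost without WT replicate 2 or 3 or without Sfrp1_KO replicate 1 or 2 (adjusted p 0.0902 to 0.124). Trib3, a pseudokinase, and Chac1, which degrades glutathione, were under background on all 6 arrays, so that no level was read for either. Asns, the asparagine synthetase, read 6.96, 6.23 and 6.24 in WT and 6.69, 6.39 and 5.91 in Sfrp1_KO, with overlap (-0.15, SE 0.27).

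In the HSP70 system of the cytosol 2 of 6 measured genes rose, Hsph1 and Dnajb4. Hsph1, which encodes the exchange factor HSP105 that resets HSP70, read 7.45, 6.86 and 6.89 in WT and 7.96, 8.21 and 8.02 in Sfrp1_KO. All Sfrp1_KO arrays were above the WT arrays, and the difference was 0.995 (SE 0.17, 95% interval 0.58 to 1.41, limma adjusted p = 0.0371). The call held without WT replicate 1 and was lost without any 1 of the other 5 arrays (adjusted p 0.0971 to 0.156), and with trend and robust options (0.0645). Dnajb4, a J-protein that hands substrates to HSP70, read 5.24, 5.25 and 5.37 in WT and 5.77, 5.88 and 5.95 in Sfrp1_KO. Its levels were not far above background, its spread was small (SD 0.08 and 0.09, n = 3), and the difference was 0.58 (SE 0.09, 95% interval 0.37 to 0.79, limma adjusted p = 0.0217). This call held without WT replicate 3 and was lost without any 1 of the other 5 arrays (adjusted p 0.0586 to 0.106).

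Hspa1a, the stress-induced HSP70, had the largest difference of the system without passing. It read 8.79, 7.89 and 8.73 in WT and 9.63, 10.04 and 9.18 in Sfrp1_KO, with no overlap (1.15, SE 0.31, limma adjusted p = 0.13), and passed under renewed quantile normalization (1.25, limma adjusted p = 0.03). Its near-identical neighbour Hspa1b can share probe signal, and Hspa1a is itself among the 12 dissociation-induced genes above. Bag3, a co-chaperone that sends clients to autophagy, read 5.14, 5.47 and 5.46 in WT and 6.24, 6.40 and 5.85 in Sfrp1_KO (0.80, SE 0.17, limma adjusted p = 0.0670). In limma it passed with dim features left out (adjusted p = 0.0462), under renewed quantile normalization (adjusted p = 0.0389), with weighted arrays (adjusted p = 0.0325) and without Sfrp1_KO replicate 3 (adjusted p = 0.0387). Dnajb1, the main stress-induced J-protein, read 7.46 ± 0.36 and 7.76 ± 0.17 (SD, n = 3) and did not pass (0.30, SE 0.19).

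Hspa4, a relative of Hsph1 with the same exchange function, went the other way. It read 9.29, 8.23 and 8.57 in WT and 7.95, 8.11 and 7.68 in Sfrp1_KO, so that all Sfrp1_KO arrays were the lower ones. The difference of -0.78 (SE 0.27) did not pass (limma adjusted p = 0.251) and did under renewed quantile normalization (-0.69, limma adjusted p = 0.0449). The closest arrays of the genotypes, WT replicate 2 and Sfrp1_KO replicate 2, were 8.23 and 8.11.

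Hsp90aa1, the stress-induced cytosolic HSP90, had the widest WT spread of all measured members. It read 10.45, 8.35 and 9.14 in WT and 8.82, 9.19 and 8.95 in Sfrp1_KO, so that the Sfrp1_KO arrays lay within the WT range (-0.33, SE 0.49, limma adjusted p = 0.886). Without WT replicate 1 the difference was 0.24. Of the small heat shock proteins, which keep unfolded proteins from clumping, Hspb8 read 6.63, 7.04 and 7.84 in WT and 8.29, 8.58 and 8.19 in Sfrp1_KO. Its arrays did not overlap, and the difference of 1.18 (SE 0.30, limma adjusted p = 0.117) passed without WT replicate 3 (1.51, limma adjusted p = 0.0249). Hspb8 is the known partner of Bag3. Hspb1 read 7.36 ± 0.74 in WT and 7.34 ± 0.47 in Sfrp1_KO (SD, n = 3), a difference of -0.02 with a 95% interval of -0.998 to 0.962.

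None of the 3 mitochondrial chaperones passed. Hspd1, the chaperonin HSP60, read 6.85, 6.18 and 6.28 in WT and 6.09, 6.27 and 6.15 in Sfrp1_KO (-0.26, SE 0.18, limma adjusted p = 0.645). WT replicate 1 stood apart and the other WT arrays overlapped the Sfrp1_KO arrays. Its co-chaperonin gene Hspe1, which shares the promoter region shown above, differed by -0.09 (95% interval -0.37 to 0.19), and Hspa9, the mitochondrial HSP70 mortalin, by 0.16 (-0.19 to 0.51).

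**Figure D3:**
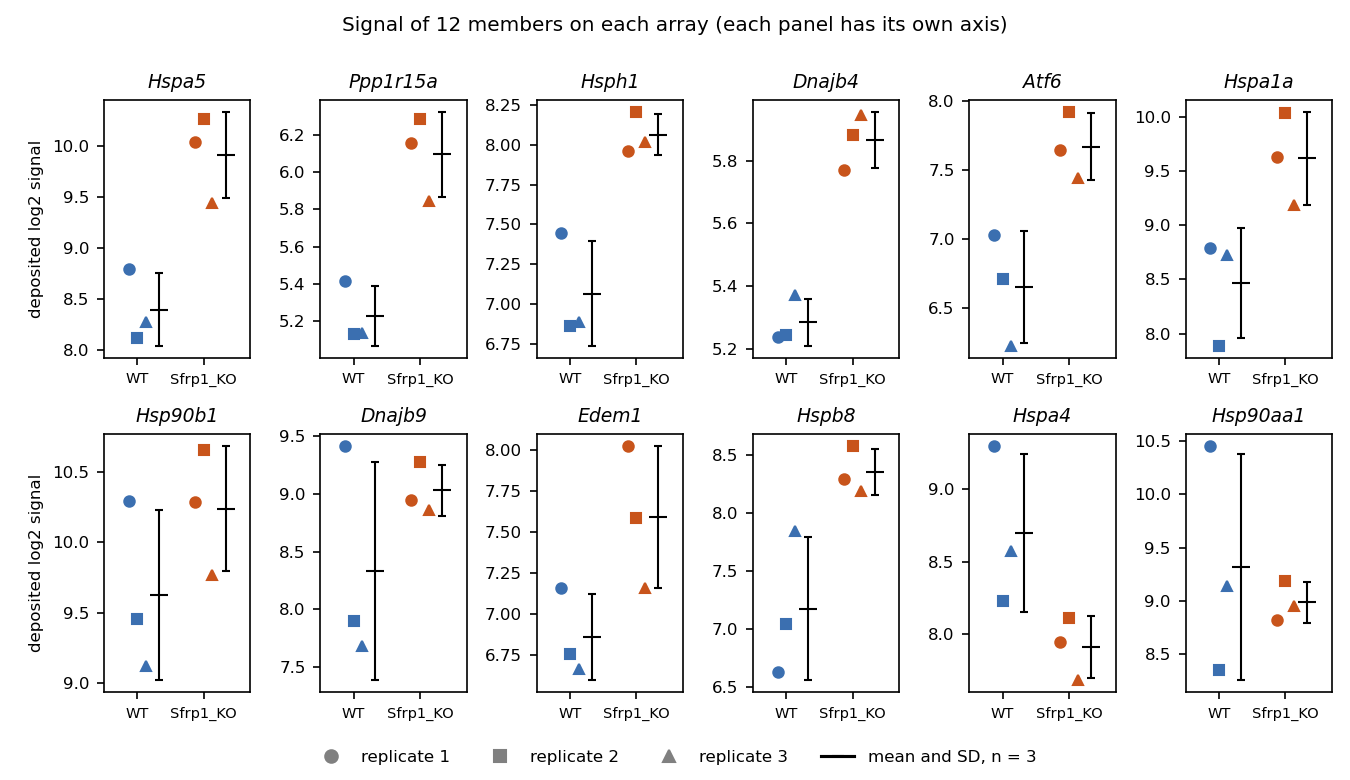
Deposited log2 signal of 12 members on each array, with the mean and SD (n = 3) in black and a separate axis per panel. Hspa5, Ppp1r15a, Hsph1, Dnajb4, Atf6, Hspa1a and Hspb8 show no overlap with Sfrp1_KO above, Hspa4 none with Sfrp1_KO below, and WT replicate 1 is the highest WT array of Hsp90b1, Dnajb9 and Hsp90aa1.

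ER genes and cytosolic and mitochondrial chaperones were then set side by side. Among ER genes 2 of 25 rose (8%), with a median difference of 0.08, and among the others 2 of 12 (16.7%), with a median of 0.23. Each share rests on 2 genes. Over all genes 1.83% rose, and of those above background on all 6 arrays 3.72% did. Every Sfrp1_KO array lay above every WT array for 5 ER genes and 5 of the others, and below for 1 of each (Sdf2l1 and Hspa4). Over all genes 9.1% lay above and 10.8% below in this way, and 1261 and 1281 of the 8687 genes above background on all 6 arrays. The mean over the 25 ER genes was 7.15, 6.76 and 6.68 on the WT arrays and 7.18, 7.22 and 6.91 on the Sfrp1_KO arrays, and that over the 12 others was 7.65, 7.06 and 7.38 against 7.70, 7.83 and 7.49. Both sets of means overlapped between genotypes through WT replicate 1. Kept to the 15 measured ER-resident chaperones, foldases and degradation genes, the ER median was 0.01. The difference between the sides was not tested, since the lists were chosen with earlier results known. With WT replicate 1 left out the medians were 0.15 for ER genes and 0.45 for the others, and with WT replicate 2 left out 0.05 and 0.07.

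The arrays of a genotype also differed in one direction for most members. Of the 33 measured members above background on all 6 arrays WT replicate 1 was the highest WT array for 26 (78.8%), where it was the highest for 59.7% of 8680 genes above background on all arrays. The median of genes above background on all arrays was 6.49 on WT replicate 1 and 6.26 and 6.27 on the other WT arrays. In Sfrp1_KO replicate 3 was the lowest of its genotype for 26 of the 33 (78.8%, against 59.7% of all such genes), and its median was 6.24 against 6.34 and 6.38. Replicate 2 was the highest Sfrp1_KO array for 10 of the 12 cytosolic and mitochondrial genes and for 11 of 21 ER genes (52.4%), against 43.3% of all such genes.

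**Figure D4:**
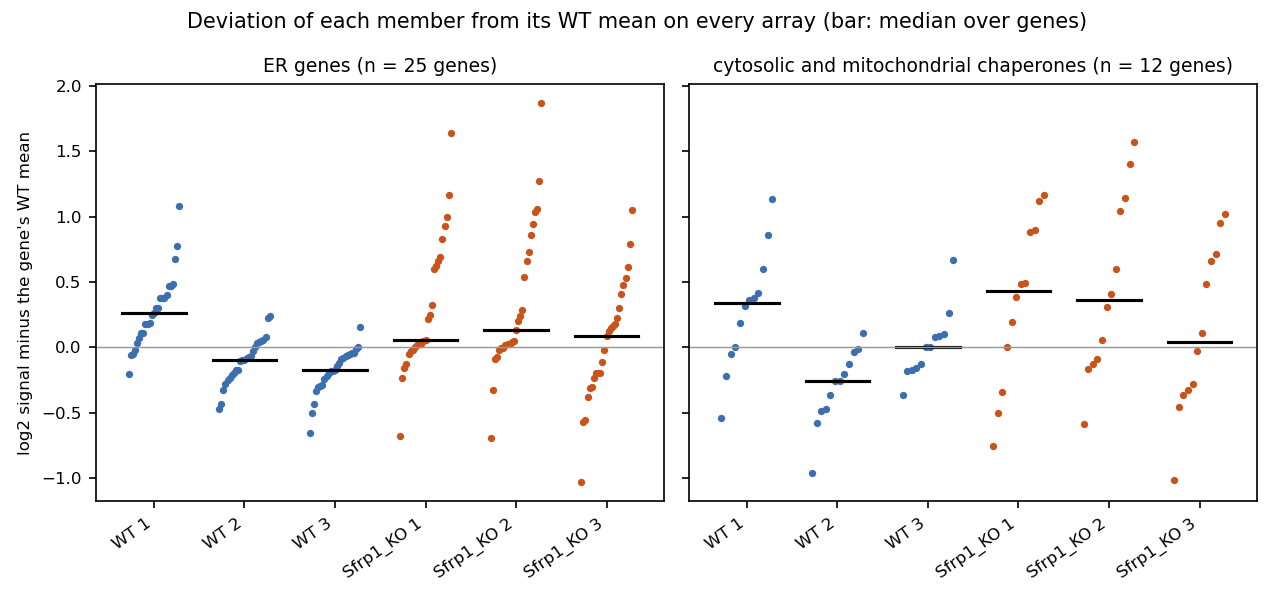
Deviation of each measured member from its own WT mean on every array in deposited log2 units, for 25 ER genes (left) and 12 cytosolic and mitochondrial chaperones (right), with the median as a bar. On both sides the points of WT replicate 1 reach above those of the other WT arrays, and the highest point is Hspa5 on Sfrp1_KO replicate 2, at 10.26 against a WT mean of 8.40.

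Of the other genes of these programmes 156 of 164 listed were measured, and 5 rose (3.21%) and 3 fell, with a median of -0.03. Over all genes 1.83% rose and 1.45% fell, and of the genes above background on all 6 arrays 3.72% rose. Among 35 further ER folding genes Fkbp7, a prolyl isomerase of the ER, rose by 0.68 (SE 0.10) and Sec61a1, the pore of the translocon, by 0.54 (SE 0.10). Of 16 further degradation genes the ubiquitin-conjugating enzyme gene Ube2j1 rose, from 8.32 ± 0.42 to 9.43 ± 0.01 (SD, n = 3; 1.11, SE 0.20). Among 18 further sensors and factors Creb3l2, an ATF6-like membrane-held factor, had the largest difference of all these genes, rising from 7.38 ± 0.39 to 9.76 ± 0.30 (SD, n = 3; 2.38, SE 0.23, limma adjusted p = 0.00633). It passed in all 6 fits that each left out 1 array.

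Of 24 further ATF4 targets none rose and 2 fell, the cationic amino acid transporter gene Slc7a1 (-1.29, SE 0.15, limma adjusted p = 0.0104) and Cth, which makes cysteine. Cth read 5.96 ± 0.16 in WT and 4.97 ± 0.05 in Sfrp1_KO (SD, n = 3), under background on all 3 Sfrp1_KO arrays, so that its level there is only a bound. The median of these 24 was -0.26. Among 51 further cytosolic chaperones Hspa12b, an HSP70 relative, rose from 4.57 ± 0.10 to 5.14 ± 0.06 and Unc45a, an HSP90 co-chaperone for myosin, fell from 5.80 ± 0.10 to 4.96 ± 0.10 (SD, n = 3). Hspa12b was under background on all WT arrays and Unc45a on all Sfrp1_KO arrays, so that these levels too are bounds. In Sfrp1_KO Hspa12b was above background on only 2 of 3 arrays. It read 5.07 to 5.18 there, close to the background of 5.04 to 5.10. None of 12 further mitochondrial chaperones and proteases passed (median -0.17). Adjusted p-values of Fkbp7, Sec61a1, Ube2j1, Cth, Hspa12b and Unc45a ran from 0.00773 to 0.0426 by limma. The calls of Fkbp7, Sec61a1, Ube2j1 and Hspa12b were lost in 4 or more of the 6 fits that each left out 1 array, and that of Slc7a1 without Sfrp1_KO replicate 2 (adjusted p = 0.0508).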

How the data were processed

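RNA of 6 samples was read on 1 Affymetrix Mouse Transcriptome Array each. Per the submitters' processing notes the authors used RMA in Affymetrix Expression Console, and the deposited values are log2 signals. Its version, summarisation level and genome build were not given in the sources used here. No scans were used. Precision rests on 3 arrays a genotype. Of 72688 features, 30604 carried 1 symbol of the platform annotation and 2146 several. The brightest feature by mean over all arrays stood for each of 30142 genes. The comparison of 3 with 3 arrays used lmFit and eBayes of limma 3.58.1 (R 4.3.3), no covariate, and Benjamini-Hochberg adjustment over all genes at 0.05. "Rose" and "fell" mean past that threshold. On simulated data over these 30142 genes, known changes were placed in 50 genes per size, all drawn from genes above the median level. At a change of 0.5 log2 units 3 of 50 were recovered, 23 of 50 at 1, 40 of 50 at 2 and 48 of 50 at 4. There were 8 false calls among 122. The simulated noise was normal and independent between genes, whereas the real arrays of a genotype differed in one direction for most members. These rates therefore need not hold for the real arrays or for dim genes. Every called member and the member with the largest absolute difference in each role were described with all array values. The members, lists and tests were chosen with earlier results of these data known. Alternatives were a replicate block, the mean over a gene's features, a filter on dim features, quantile normalization once more, array weights, trend and robust options, no moderation, a minimum difference of 1 log2 unit, ER-resident members alone, and leaving out each array. Promoter windows were matched to members by symbol, and protein sequences were not used here.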

Additional observations from a re-analysis of the deposited data

How the results depend on the processing

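With the replicate number as a block 297 genes rose and 238 fell, and no member, ER gene or cytosolic or mitochondrial chaperone rose. Same-numbered samples correlated at 0.18, -0.122 and 0.171 in their deviations, so the numbers were not taken as pairs. After quantile normalization once more 892 genes rose, 7 members rose (4 of them cytosolic or mitochondrial) and 1, Hspa4, fell. With trend and robust options 2 members rose, 1 ER gene and 1 of the others. Without moderation 14 genes rose and 21 fell, and 0 members, 0 ER genes and 0 of the others rose. With a minimum difference of 1 log2 unit 295 genes rose and 244 fell, and 1 member rose, an ER gene, and 0 of the others. Leaving out 1 array at a time, 191 to 487 genes rose and 100 to 407 fell, 0 to 5 members rose and 0 fell, 0 to 4 ER genes and 0 to 2 of the others rose, and the medians ran from 0.05 to 0.15 for ER genes and from 0.07 to 0.45 for the others. Of 626 alternative values of single genes 543 stayed on their side of the threshold, 72 lost a call and 11 gained one. Only the 4 called members and the other called genes (5 that rose and 3 that fell) could lose a call. Most of the 543 belong to genes that were not called, so they do not measure how stable the calls were. The sign changed in 26 of the 626 values, over 11 genes (Canx, Pdia3, Pdia6, Hyou1, Herpud1, Sel1l, Syvn1, Asns, Hsp90aa1, Hspb1 and Hspe1), none called with or without the change. The cause was not tested. Features at the highest or under the background level of an array limit what can be read, as for Hspa8, Trib3 and Chac1.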
